A study of Mus musculus with 20 samples.

Results

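Iron handling by the liver depends on a small set of genes, and 10 of them were followed here across 3 kinds of mouse liver tumor and control livers. They were *Hamp* and *Hamp2*, which encode the iron hormone hepcidin and its close copy, and *Bmp6*, the upstream ligand of hepcidin. *Hfe* and *Tfr2* take part in sensing iron-loaded transferrin, *Trf* encodes transferrin itself, and *Tfrc* encodes the receptor that takes it up. The others were *Slc40a1*, the iron exporter ferroportin, and *Fth1* and *Ftl1*, the heavy and light chains of ferritin. The genes were taken by symbol from the 50559 genes of the 2 count tables, and the choice was made with earlier results of these data known. All 10 were present under their symbols, and all 10 passed the filter on low counts, as did 14333 genes in all.

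RNA was sequenced from 20 samples of female wild-type C57BL/6J mice, 5 in each of 4 groups. Plasmids were delivered to the liver of young adults by hydrodynamic injection together with the SB100X Sleeping Beauty transposase, so that only hepatocytes that took them up carried them, within an otherwise wild-type host. Aldafermin+MYC tumors carried human *MYC* under the EF1a promoter and Aldafermin, an engineered analog of the human bile acid hormone FGF19. FGF19+MYC tumors carried the same *MYC* plasmid with human FGF19, and sgTrp53+MYC tumors carried *MYC* with a CRISPR guide against *Trp53*. The labels call the control livers non treated, whereas a figure legend of the study describes gene transfer of a red fluorescent protein plasmid. The treatment field of the sgTrp53+MYC samples reads none, so that their group was taken from the titles. Mice had been fasted before livers were taken, and tumors were snap frozen one by one, each from a different mouse, so that p-values measure the spread between mice.

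Hepcidin is a peptide that hepatocytes secrete into blood, where it binds ferroportin on gut, macrophage and liver cells and has it degraded, so that less iron reaches plasma. Its transcription rises with iron: endothelial BMP6 and BMP2 signal through SMAD proteins to the *Hamp* promoter, with HFE, TFR2 and hemojuvelin as partners on the hepatocyte, and interleukin-6 adds to it through STAT3. The erythroblast hormone erythroferrone and the protease TMPRSS6 lower it. Inside cells, iron regulatory proteins bind hairpins called iron-responsive elements when iron is scarce. Binding before the coding sequence blocks translation of ferritin and ferroportin, whereas binding after it protects *Tfrc* RNA from decay.

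These elements are shown because they divide the genes that were measured. Each is read 5′ to 3′ on the RNA strand in DNA letters, from GRCm39 and GENCODE M39 transcripts, with the loop of 6 bases in capitals. The search asked for CAGTG and then A, C or T between 5 base pairs, G-T pairs included, with an unpaired C before them. The ferritin and ferroportin elements lie in 5′ UTRs, and the 4 *Tfrc* elements that this search found lie in its 3′ UTR, within 1 exon each.
Fth1, chr19:9960096-9960124, plus strand: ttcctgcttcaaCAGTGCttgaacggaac
Ftl1, chr7:45109203-45109231, minus strand: gtcttgcttcaaCAGTGTttgaacggaac
Slc40a1, chr1:45964625-45964653, minus strand: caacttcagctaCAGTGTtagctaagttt
Tfrc, 1, chr16:32450037-32450065, plus strand: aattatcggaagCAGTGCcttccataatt
Tfrc, 2, chr16:32450416-32450444, plus strand: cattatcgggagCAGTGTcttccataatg
Tfrc, 3, chr16:32450481-32450509, plus strand: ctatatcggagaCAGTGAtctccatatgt
Tfrc, 4, chr16:32450528-32450556, plus strand: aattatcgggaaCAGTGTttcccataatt
By the same search, 20 of 20810 5′ UTRs (0.0961%) and 93 of 20854 3′ UTRs (0.446%) of canonical transcripts held at least 1 such hairpin. Of the other 6 genes, none held one in its UTRs by this search.

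Libraries held between 18004977 and 66354724 reads on genes. Those of sgTrp53+MYC tumors came in their own table and were deeper (54042455 to 66354724 reads, against 18004977 to 44427184), and 11.1% to 14.6% of their reads were ambiguous between genes, against 3.03% to 6.30% in the other libraries, so that group and table cannot be told apart. *Trp53*, the targeted gene, was at 18.7 to 79.9 CPM (its reads relative to all reads on genes, scaled between libraries) in sgTrp53+MYC tumors, below the 90.8 to 176 of the other tumors and around the 28.8 to 36.4 of livers. Defining hepatocyte markers (*Alb*, *Ttr*, *Apoa1*, *Serpina1c* and *Cps1*) were present in every library, and their summed CPM was 171110 to 219177 in livers, 8051 to 20792 with Aldafermin+MYC, 8981 to 26747 with FGF19+MYC and 3268 to 9982 with sgTrp53+MYC. Summed markers of sinusoidal endothelium, the main source of *Bmp6* in liver, were 318 to 528 CPM in livers, 68.1 to 238, 103 to 246 and 67.2 to 163 in the same order of tumors, and those of Kupffer cells 377 to 581 in livers and 101 to 329, 232 to 441 and 54.3 to 139 in tumors. Biliary markers summed to 312 CPM in sgTrp53+MYC replicate 2 and to at most 18.4 CPM elsewhere. In bulk RNA, fewer cells of a type and less RNA per cell cannot be told apart, and the part of such shifts in the results was not tested.

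The first question was how iron genes in tumors differ from those in liver. Against livers, 9 of the 10 genes were lower and *Tfrc* was higher in each of the 3 tumor groups, and in each group the tumor and liver values of all 10 did not overlap. The hepcidin gene *Hamp* fell by 20.7 to 37.7 times, transferrin and its sensor *Tfr2* fell by 6.15 to 18.8 times, and the ferritin chains and ferroportin by up to 4.60 times, whereas *Tfrc* rose by 20.9 to 31.7 times. The test was that of edgeR with quasi-likelihood on raw counts, with p-values adjusted by the Benjamini-Hochberg method over the 14333 genes and a threshold of 0.05. Most genes passed it in these comparisons: 70.3% of all tested genes for Aldafermin+MYC, 69.7% for FGF19+MYC and 69.9% for sgTrp53+MYC (31.9%, 32.9% and 33% for lower genes, 38.4%, 36.9% and 36.9% for higher genes), and 58.8%, 62.5% and 56.2% did not overlap in CPM. Over the 10 genes the median change (log2) was -2.21, -2.06 and -2.52, beside 0.13, 0.06 and 0.07 over all tested genes. All 3 comparisons share the same 5 livers, so that their likeness is not independent. The factors that scale CPM between libraries were 0.615 to 0.682 in livers and 0.997 to 1.31 in tumors. The size of the smaller falls, such as those of *Fth1* and *Slc40a1*, thus depends on this scaling. So does the lack of overlap with livers for *Fth1*, and for *Slc40a1* in Aldafermin+MYC tumors. The count of 10 held without each library in turn and without the 4 libraries in which an iron gene stood apart from its group, and it was 9 under 2 alternatives, in which *Fth1* in sgTrp53+MYC tumors did not pass.

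**Figure D1:**
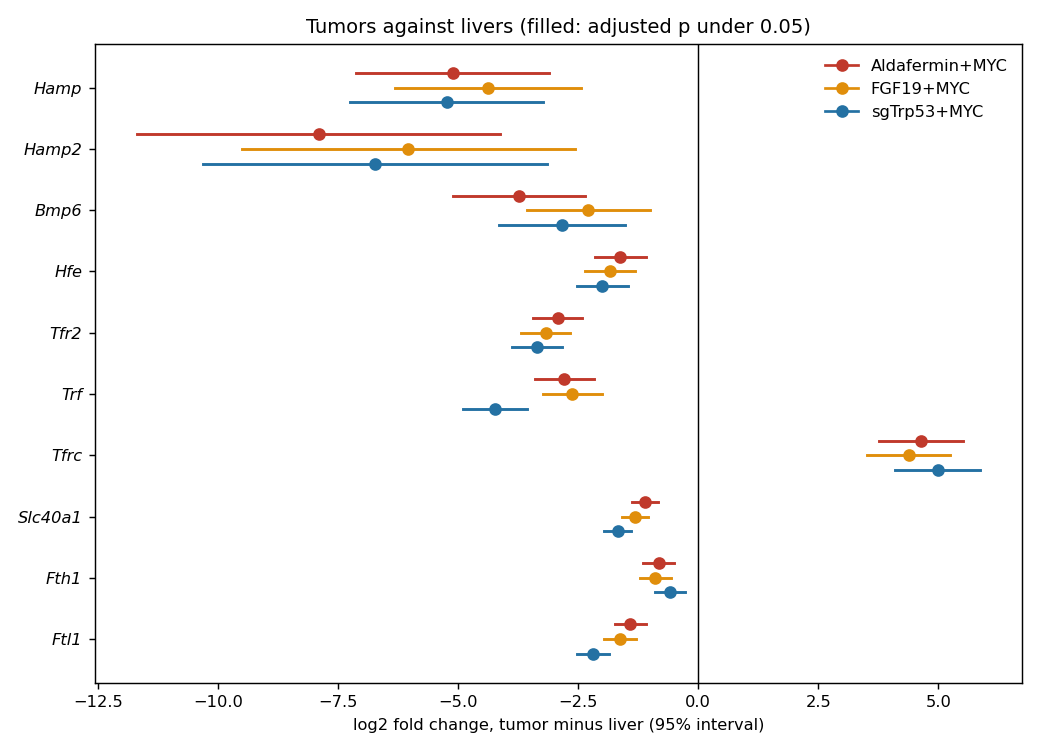
Log2 fold change of each iron gene in tumors against livers (horizontal axis, points, 5 libraries a group) with its 95% interval (lines), by tumor group. All 30 points are filled (adjusted p under 0.05), 9 genes lie to the left of 0 in every group and *Tfrc* lies to the right.

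Hepcidin transcripts were abundant in livers and low in tumors. *Hamp* (chr7:30641766-30643990, minus strand) and *Hamp2* (chr7:30621797-30624106, minus strand) are neighbours in GRCm39, the build of all positions given here, and their canonical transcripts were 93.3% identical over 430 aligned bases. *Hamp* was at 1424, 1800.05, 2044, 2303 and 2557 CPM in livers. In tumors it was at 1.36, 7.76, 39.8, 72.7 and 171 CPM with Aldafermin+MYC, at 49.1, 71.3, 112, 123 and 134 CPM with FGF19+MYC and at 11.9, 14.3, 37.6, 51.3 and 153 CPM with sgTrp53+MYC. The highest tumor was thus far below the lowest liver, yet tumors of 1 group differed among themselves by up to 126 times in Aldafermin+MYC, 12.9 times in sgTrp53+MYC and 2.73 times in FGF19+MYC tumors. The log2 fold change against livers was -5.11 (SE 0.96, adjusted p = 9.89e-05) in Aldafermin+MYC, -4.37 (SE 0.92, adjusted p = 0.000339) in FGF19+MYC and -5.24 (SE 0.96, adjusted p = 7.98e-05) in sgTrp53+MYC tumors. Over the same tumors the median marker of hepatocytes, the cells that make hepcidin, changed by -3.35, -3.09 and -3.96, and its part in the fall of *Hamp* was not tested.

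*Hamp2*, whose product is not known to act on iron, had still larger fold changes with wider errors. Its level was 357, 751, 844, 946 and 1643 CPM in livers and 0, 0, 0.0744, 0.870 and 18.4 CPM in Aldafermin+MYC tumors, where 2 libraries held 0 reads, a count that allows up to 3. In FGF19+MYC tumors it was 0.381, 2.83, 3.96, 9.79 and 51.9 CPM and in sgTrp53+MYC tumors 0.572, 1.83, 1.97, 16.9 and 21.5 CPM. A single tumor carried most of the reads in 2 groups: replicate 4 of Aldafermin+MYC (18.4 CPM) and replicate 5 of FGF19+MYC (51.9 CPM). The log2 fold changes were -7.90 (SE 1.81, adjusted p = 0.000695), -6.04 (SE 1.66, adjusted p = 0.0032) and -6.73 (SE 1.71, adjusted p = 0.00171) in the same order. Without replicate 4 the first became -11.94 and without replicate 5 the second became -7.74, and both still passed. The longest stretch of identical bases in both transcripts was 87, which is shorter than a read as the study's methods describe it. How well reads were assigned to 1 of the 2 genes was not tested. In GENCODE, the noncoding gene *Gm44662* on the other strand covers 63.8% of the exon bases of *Hamp2* and 10.7% of those of *Hamp*, and the strand setting of the counting is not given in the sources used here.

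**Figure D2:**
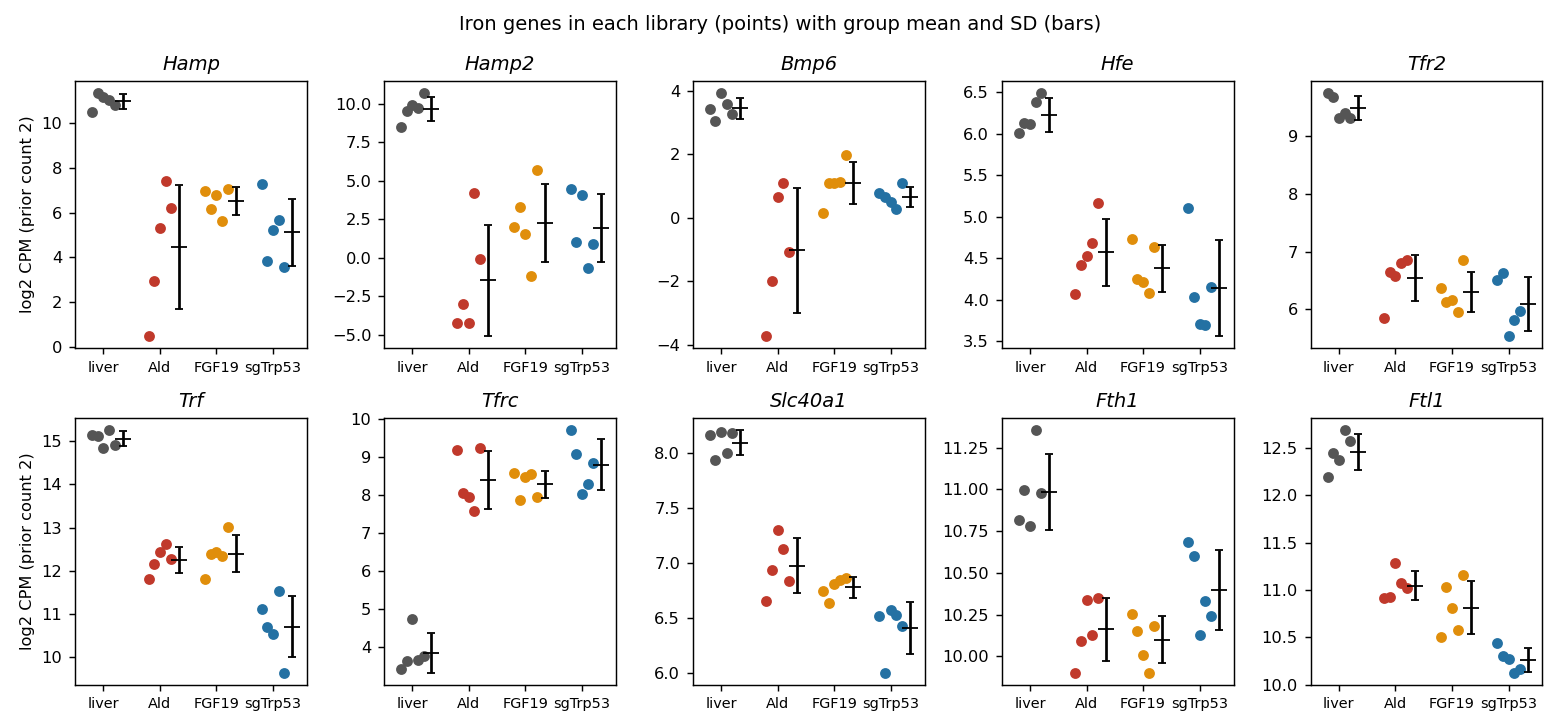
Level of each iron gene in every library (points) with the mean and SD of each group (bars), as log2 CPM with a prior count of 2, which is the vertical axis of each panel. Ald, FGF19 and sgTrp53 stand for the tumor groups with MYC, and in each panel the 5 livers are apart from all 15 tumors.

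*Bmp6* (chr13:38529065-38684280), the iron-induced ligand upstream of hepcidin, was low even in livers and fell in all tumors. Livers held 8.28, 9.68, 10.6, 12.02 and 15.2 CPM. Aldafermin+MYC tumors held 0.0243, 0.198, 0.421, 1.52 and 2.08 CPM, FGF19+MYC tumors 1.06, 2.08, 2.11, 2.14 and 3.94 CPM and sgTrp53+MYC tumors 1.16, 1.36, 1.54, 1.66 and 2.07 CPM. The 15 tumors were all below the lowest liver, and the widest spread was again in Aldafermin+MYC tumors, where 1 library held a single read. The log2 fold change was -3.74 (SE 0.66, adjusted p = 5.01e-05), -2.29 (SE 0.61, adjusted p = 0.00266) and -2.84 (SE 0.62, adjusted p = 0.000475) in Aldafermin+MYC, FGF19+MYC and sgTrp53+MYC tumors. The median sinusoidal endothelial marker changed by -1.83, -1.38 and -1.96 in the same groups, with 5, 4 and 5 of 7 markers passing the test as lower, and its part in the fall of *Bmp6* was not tested.

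Of the sensors, *Hfe* (chr13:23886017-23894914), which encodes the membrane protein mutated in the common form of hemochromatosis, fell less. Its mean was 75.3 ± 10.7 (SD, n = 5) CPM in livers, 24.5 ± 7.10 (SD, n = 5) in Aldafermin+MYC, 21.1 ± 4.26 (SD, n = 5) in FGF19+MYC and 18.9 ± 8.97 (SD, n = 5) in sgTrp53+MYC tumors. *Tfr2* (chr5:137568087-137586343), the hepatocyte transferrin receptor that serves as a sensor, fell by 7.58, 9.06 and 10.2 times, from 635, 639, 678, 817 and 860.2 CPM in livers to 57.5, 94.8, 99.6, 111 and 116 CPM in Aldafermin+MYC, 62.1, 69.4, 71.0, 82.5 and 116 CPM in FGF19+MYC and 46.3, 56.2, 62.4, 91.1 and 98.8 CPM in sgTrp53+MYC tumors. Its log2 fold change was -2.92 (SE 0.24, adjusted p = 3.02e-09), -3.18 (SE 0.25, adjusted p = 1.07e-09) and -3.35 (SE 0.25, adjusted p = 5.45e-10), and that of *Hfe* was -1.62 (SE 0.25, adjusted p = 1.17e-05), -1.84 (SE 0.25, adjusted p = 2.88e-06) and -1.996 (SE 0.25, adjusted p = 9.68e-07). Both sensors thus moved with narrow errors, narrower than those of the hormone genes and of *Bmp6*.

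The 2 transferrin receptors moved in opposite directions. *Tfrc* (chr16:32427556-32451612), the uptake receptor that all dividing cells use, was at 10.7, 12.4, 12.6, 13.7 and 26.9 CPM in livers, with replicate 3 (26.9 CPM) above the others. It rose to 189.8, 248, 266, 581 and 607 CPM in Aldafermin+MYC, 234, 246, 359, 378 and 383 CPM in FGF19+MYC and 259, 316, 463, 543 and 840.2 CPM in sgTrp53+MYC tumors. The lowest tumor was above the highest liver. The log2 fold change was 4.63 (SE 0.42, adjusted p = 9.23e-09), 4.39 (SE 0.41, adjusted p = 1.67e-08) and 4.99 (SE 0.42, adjusted p = 3.85e-09) in the same order, and 4.94, 4.69 and 5.29 without liver replicate 3. Summed proliferation markers (*Mki67*, *Top2a*, *Ccnb1* and *Cdk1*) were at 5.81 to 21.3 CPM in livers and at 498 to 909 CPM over all tumors, and their part in the rise of *Tfrc* was not tested.

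*Trf* (chr9:103081200-103107814), which encodes the plasma iron carrier that hepatocytes secrete, was the most abundant of the 10 genes per kilobase of exon in livers. Its level there was 29393, 30929, 35442, 36479.7 and 39399.9 CPM. It was at 3578, 4582, 4911, 5516 and 6263 CPM with Aldafermin+MYC, 3582, 5191, 5339.9, 5499 and 8319 CPM with FGF19+MYC and 797, 1486, 1666, 2227 and 2961 CPM with sgTrp53+MYC. Livers, the pair of tumor groups with an FGF19 form, and sgTrp53+MYC tumors formed 3 levels with no overlap between them. The log2 fold change against livers was -2.79 (SE 0.30, adjusted p = 8.89e-08), -2.62 (SE 0.29, adjusted p = 1.90e-07) and -4.23 (SE 0.32, adjusted p = 6.06e-10) for Aldafermin+MYC, FGF19+MYC and sgTrp53+MYC tumors.

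*Slc40a1* (chr1:45947211-45965683), the only known cellular iron exporter and the target of hepcidin, fell by 2.15 to 3.19 times. Livers held 245, 256, 287, 289 and 291 CPM. Aldafermin+MYC tumors held 101, 114, 123, 140.02 and 158 CPM, FGF19+MYC tumors 99.2, 107, 112, 115 and 116 CPM and sgTrp53+MYC tumors 64.2, 85.9, 91.7, 92.2 and 95.1 CPM. On the scaled CPM, all tumors were below all livers, and the fold changes had SEs of 0.13 on the log2 scale: -1.11 (SE 0.13, adjusted p = 4.57e-07), -1.31 (SE 0.13, adjusted p = 4.60e-08) and -1.67 (SE 0.13, adjusted p = 1.66e-09) in the same order. Without the scaling between libraries, the *Slc40a1* values of livers and of Aldafermin+MYC tumors would overlap. Kupffer cells, which express *Slc40a1* strongly, had a median marker change of -2.29, -1.10 and -3.10, and 5, 3 and 7 of their 7 markers were lower, and the part of this was not tested.

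On the scaled CPM, both ferritin chains, which form the shell that stores iron, fell. *Fth1* (chr19:9957911-9962462), the heavy chain that oxidizes iron on entry, was at 1758, 1801, 2015, 2042 and 2623 CPM in livers. It was at 957, 1089, 1121, 1296 and 1307 CPM in Aldafermin+MYC, 957, 1031, 1139.8, 1163 and 1221 CPM in FGF19+MYC and 1119, 1213, 1286, 1554 and 1648 CPM in sgTrp53+MYC tumors. The highest tumor was just below the lowest liver. Without the scaling between libraries, the *Fth1* values of livers and of each tumor group would overlap. Its log2 fold change was -0.83 (SE 0.15, adjusted p = 9.19e-05), -0.89 (SE 0.15, adjusted p = 4.09e-05) and -0.59 (SE 0.15, adjusted p = 0.00218). The last did not pass without the filter on low counts (-0.30, adjusted p = 0.188) or with only those 2 groups in the model (-0.45, adjusted p = 0.0519). With GC content and transcript length corrected for, an alternative chosen after seeing the data, the falls of *Fth1* were -1.37, -1.32 and -0.72 in the same order. In GENCODE, the noncoding gene *Gm36913* on the other strand covers 41.5% of the exon bases of *Fth1*.

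*Ftl1* (chr7:45107367-45109308), the light chain that aids mineral formation, was at 4676, 5289, 5595, 6111 and 6613 CPM in livers. It was at 1926, 1950.4, 2078, 2155 and 2498 CPM with Aldafermin+MYC, 1453, 1524, 1791, 2087 and 2286 CPM with FGF19+MYC and 1118, 1150.3, 1233, 1264 and 1385 CPM with sgTrp53+MYC. No tumor reached the lowest liver, and the highest sgTrp53+MYC tumor was below the lowest of the other tumors. The log2 fold change was -1.41 (SE 0.16, adjusted p = 1.46e-07), -1.63 (SE 0.16, adjusted p = 2.25e-08) and -2.20 (SE 0.16, adjusted p = 3.98e-10) in the same order. With the same correction they were -1.88, -1.96 and -2.19. Ferritin genes have pseudogene copies that can share reads: *Ftl1-ps1* was at 15.3 CPM in livers and 4.17 to 5.92 CPM in the means of the tumor groups, and *Ftl2-ps* at 9.14 CPM and 0.728 to 3.96 CPM. In GENCODE, *Gm10252* on the other strand covers 26.5% of the exon bases of *Ftl1*. The microRNA gene *Gm56125* on the same strand covers 8.13%. The part of these overlaps in the counts of *Ftl1* was not tested.

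Levels of different genes were compared only per kilobase of exon (CPM per kilobase, group means). The length was that of all annotated exons of a gene together. It exceeds that of the canonical transcript, as for *Fth1* (3520 against 929 bases), *Trf* (5693 against 2571) and *Ftl1* (1341 against 969). By canonical transcript length some orders would differ, such as that of *Ftl1* and *Fth1* in sgTrp53+MYC tumors. In livers the order was *Trf* (6030.0), *Ftl1* (4218), *Hamp* (2276), *Hamp2* (1489), *Fth1* (582), *Tfr2* (147), *Slc40a1* (29.03), *Hfe* (19.9), *Bmp6* (2.84) and *Tfrc* (2.16). In Aldafermin+MYC tumors *Ftl1* (1582) stood first, before *Trf* (873), *Fth1* (328), *Hamp* (65.8) and *Tfrc* (53.5). In FGF19+MYC tumors the order began with *Ftl1* (1364), *Trf* (981), *Fth1* (313), *Hamp* (110) and *Tfrc* (45.2). In sgTrp53+MYC tumors it ran *Ftl1* (917), *Fth1* (387), *Trf* (321), *Tfrc* (68.5) and *Hamp* (60.3). *Tfrc*, last of the 10 in livers, was thus among the first 5 in all tumor groups. Some neighbours in these orders were closer than the larger of their SDs. These were *Bmp6* and *Tfrc* in livers, *Fth1* and *Trf* in sgTrp53+MYC tumors, and *Hamp* and *Tfrc* in Aldafermin+MYC and sgTrp53+MYC tumors.

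Across single tumors, the hepcidin genes and *Bmp6* varied most and the storage and export genes least. Against the mean of the livers, the 15 tumors ranged from -10.46 to -3.54 in log2 CPM for *Hamp*, from -7.17 to -1.46 for *Bmp6* and from -5.42 to -2.04 for *Trf*, but from -2.09 to -0.79 for *Slc40a1* and from -1.08 to -0.30 for *Fth1*. Replicate 1 of Aldafermin+MYC had the lowest *Hamp* (1.36 CPM), *Bmp6* (0.0243 CPM, 1 read), *Tfr2* (57.5 CPM) and hepatocyte marker sum (8051 CPM) of its group. Replicate 4 of that group had the highest *Hamp* (171 CPM), *Hamp2*, *Bmp6* (2.08 CPM), *Trf* (6263 CPM) and hepatocyte marker sum (20792 CPM), and the lowest *Tfrc* (190 CPM). In FGF19+MYC tumors, replicate 5 was highest in *Hamp*, *Hamp2*, *Bmp6*, *Tfr2*, *Trf* and the hepatocyte marker sum. Within sgTrp53+MYC tumors, replicate 1 was highest in *Hamp*, *Hamp2*, *Hfe* and the hepatocyte marker sum, but also in *Tfrc* (840 CPM).

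**Figure D3:**
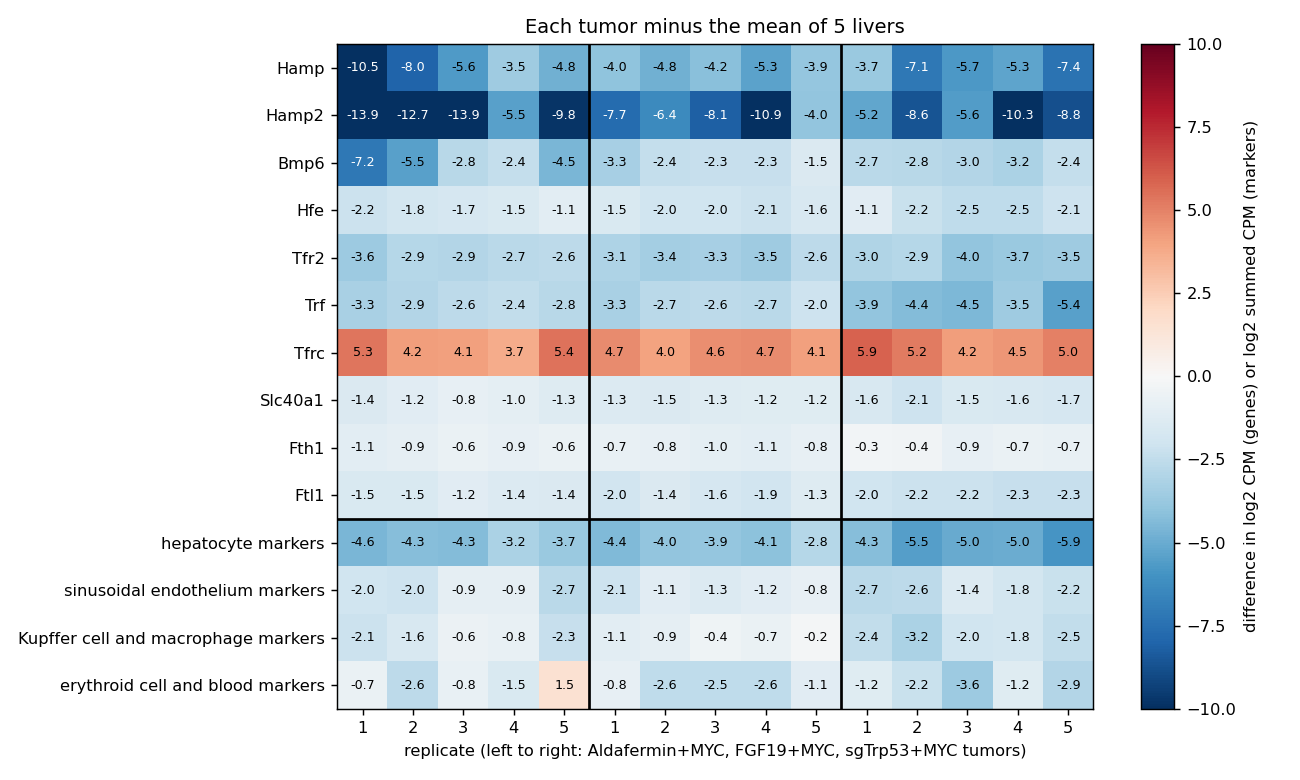
Difference in log2 CPM (prior count 2) between each of the 15 tumors (columns) and the mean of the 5 livers for each iron gene (rows), with the log2 difference of summed CPM for 4 marker lists below the line. Red is higher than liver and blue lower, and *Tfrc* is the only iron gene above 0 in any tumor.

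The second question was whether Aldafermin differs from FGF19, from which it was derived, when each is combined with MYC. No iron gene passed the test between Aldafermin+MYC and FGF19+MYC tumors, and the values of all 10 overlapped, whereas 1.46% of all tested genes did not overlap. Nor did any of the 14333 genes (0%) by edgeR's quasi-likelihood test, with 1048 (7.31%) under an unadjusted p of 0.05 and with 96 called by DESeq2 and 59 by edgeR's likelihood ratio test. Among the iron genes, 1 had an unadjusted p under 0.05, *Bmp6*, with a log2 fold change of -1.44 (SE 0.62, adjusted p = 0.598), which is 2.72 times lower in Aldafermin+MYC tumors, and DESeq2 called none of the 10.

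The intervals show which differences these data leave room for. They were narrow for *Slc40a1* (0.21, 95% interval -0.06 to 0.48), *Ftl1* (0.21, 95% interval -0.10 to 0.53) and *Fth1* (0.07, 95% interval -0.25 to 0.39). They were wider for *Tfr2* (0.26, 95% interval -0.22 to 0.73), *Hfe* (0.21, 95% interval -0.30 to 0.73), *Trf* (-0.17, 95% interval -0.75 to 0.41) and *Tfrc* (0.24, 95% interval -0.51 to 0.99). For *Hamp* (-0.74, 95% interval -2.43 to 0.95) and *Hamp2* (-1.86, 95% interval -4.80 to 1.07) they reached from 5.404 and 27.8 times lower to 1.94 and 2.10 times higher in Aldafermin+MYC tumors. The groups are therefore not shown to be alike in hepcidin. The sign of the *Tfrc* and *Fth1* differences turned without Aldafermin+MYC replicate 5, and that of *Trf* without FGF19+MYC replicate 5.

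**Figure D4:**
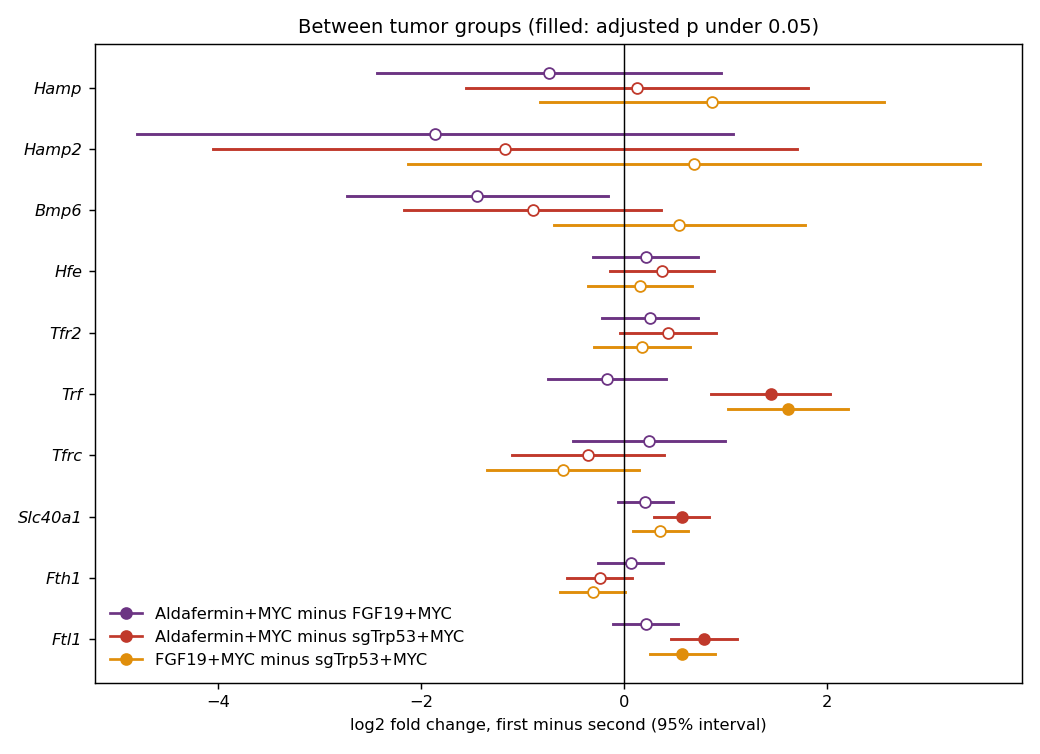
Log2 fold change of each iron gene between tumor groups (horizontal axis, first minus second group as named in the key, 5 libraries each) with its 95% interval. The 5 filled points (adjusted p under 0.05) are *Trf* and *Ftl1* in both comparisons with sgTrp53+MYC tumors and *Slc40a1* in Aldafermin+MYC tumors, and every interval of Aldafermin+MYC minus FGF19+MYC other than that of *Bmp6* crosses 0.

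The third question was whether tumors driven with an FGF19 form differ from MYC tumors with *Trp53* targeted. *Trf*, *Ftl1* and *Slc40a1* were higher in Aldafermin+MYC than in sgTrp53+MYC tumors, and *Trf* and *Ftl1* were higher in FGF19+MYC tumors, whereas hepcidin, *Bmp6*, both sensors, *Tfrc* and *Fth1* did not pass. These counts of 3 and 2 of 10 stood beside 17.7% and 15.8% of all tested genes called in either direction and 10.2% and 7.97% called higher. Groups did not overlap for *Trf*, *Ftl1* and *Slc40a1* in both comparisons, beside 9.75% and 10.9% of all genes in either direction and 5.61% and 5.45% in the higher direction.

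*Trf* differed most, at 4970 ± 1008 CPM (SD, n = 5) in Aldafermin+MYC and 5586 ± 1711 CPM in FGF19+MYC tumors against 1827 ± 814 CPM in sgTrp53+MYC tumors. The log2 fold change was 1.44 (SE 0.28, adjusted p = 0.00197) and 1.61 (SE 0.28, adjusted p = 0.000943), and it passed in all alternatives and without any single library. *Alb*, another secreted product of hepatocytes, differed by 1.56 and 1.73 (adjusted p = 0.0366 and 0.0251) in the same comparisons. Of the 5 hepatocyte markers, 2 were higher and 1 lower in Aldafermin+MYC, and 3 higher and 1 lower in FGF19+MYC than in sgTrp53+MYC tumors, and their part in the difference of *Trf* was not tested.

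*Ftl1* was higher in Aldafermin+MYC and FGF19+MYC tumors by 0.79 (SE 0.15, adjusted p = 0.00195) and 0.57 (SE 0.15, adjusted p = 0.0163). *Slc40a1* was higher by 0.57 (SE 0.13, adjusted p = 0.00609) in Aldafermin+MYC tumors, and its difference in FGF19+MYC tumors was 0.36 (SE 0.13, adjusted p = 0.0691), which did not pass. The *Slc40a1* call was lost with no filter on low counts (0.45, adjusted p = 0.0559) and with only the compared groups (0.52, adjusted p = 0.0846). The *Ftl1* call in FGF19+MYC tumors was lost in the same alternatives (0.46, adjusted p = 0.122, and 0.56, adjusted p = 0.0685), without the 4 libraries in which an iron gene stood apart (0.52, adjusted p = 0.0567) and without FGF19+MYC replicate 5 (0.48, adjusted p = 0.0506). Of 7 Kupffer cell markers, 3 were called higher in Aldafermin+MYC and 4 in FGF19+MYC than in sgTrp53+MYC tumors and the others did not pass, with *Vsig4* at -0.84 in Aldafermin+MYC, and their part was not tested. The difference between the 2 *Slc40a1* values is that between Aldafermin+MYC and FGF19+MYC tumors, which did not pass either (adjusted p = 0.824).

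Calls of the storage genes changed with a correction for base composition, an alternative chosen after seeing the data. Over 13847 genes with a value (96.6% of those tested), fold changes of Aldafermin+MYC and FGF19+MYC against sgTrp53+MYC tumors rose with the GC content of the transcript (Spearman's rho 0.31 and 0.27 across genes, which are not independent replicates). The *Ftl1* transcript has a GC content of 58.1%, *Fth1* 53.4% and *Slc40a1* 44.2%. With GC content and transcript length corrected for, *Ftl1* no longer passed (0.31, adjusted p = 0.201, and 0.23, adjusted p = 0.366). In that fit *Fth1* was lower than in sgTrp53+MYC tumors in both groups (-0.65, adjusted p = 0.00158, and -0.60, adjusted p = 0.0029) and *Slc40a1* was higher in both (0.73 and 0.53, adjusted p = 0.000549 and 0.0061). *Trf* kept its call in that fit (1.28 and 1.52).

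Hepcidin was not shown to differ between tumor groups with an FGF19 form and sgTrp53+MYC tumors. For *Hamp* the log2 fold change was 0.12 (SE 0.81, adjusted p = 0.935) and 0.86 (SE 0.81, adjusted p = 0.509). For *Hamp2* it was -1.17 (SE 1.38, adjusted p = 0.597) and 0.69 (SE 1.35, adjusted p = 0.776). Single libraries decided some of these values: without Aldafermin+MYC replicate 4 the *Hamp2* value was -5.21 (adjusted p = 0.0236), and without sgTrp53+MYC replicate 1 *Hfe* was higher in Aldafermin+MYC tumors by 0.71 (adjusted p = 0.0168). For *Tfrc* the difference was -0.36 (SE 0.36, adjusted p = 0.533) and -0.60 (SE 0.36, adjusted p = 0.274).

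The rest of the iron pathway was described with 5 lists of other genes. Of 22 genes that act on hepcidin, 3 were higher and 13 lower in Aldafermin+MYC, 3 and 14 in FGF19+MYC and 3 and 15 in sgTrp53+MYC tumors against livers, with median log2 fold changes of -0.80, -0.86 and -1.13, beside 0.13, 0.06 and 0.07 over all tested genes. Those called made up 72.7%, 77.3% and 81.8% of the list, beside the 70.3%, 69.7% and 69.9% of all tested genes, and those lower 59.1%, 63.6% and 68.2%, against 31.9%, 32.9% and 33% of all. *Tmprss6*, which encodes the protease that restrains hepcidin by cutting hemojuvelin, fell from 1088 ± 101 CPM in livers to 45.3 ± 46.0, 46.4 ± 44.4 and 70.6 ± 31.6 CPM (log2 fold change -4.59, -4.55 and -3.95). *Atoh8*, a transcription factor that BMP signals induce, fell from 45.0 ± 18.0 CPM to 1.48 ± 1.15, 3.54 ± 2.91 and 1.19 ± 0.709 CPM (-4.94, -3.66 and -5.23). Activators and restraints of hepcidin were thus both among the genes that fell.

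*Erfe*, which encodes the hepcidin-lowering hormone erythroferrone, went the other way. Livers held 0 or 1 read each, whereas tumors held 92 to 244 reads in Aldafermin+MYC, 94 to 196 in FGF19+MYC and 636 to 1448 in sgTrp53+MYC. In CPM the tumors were at 4.09 ± 1.20, 4.57 ± 0.893 and 11.4 ± 3.25. With each liver set to a floor of 3 reads, which covers counting error only, *Erfe* was at least 26.1-fold, 29.2-fold and 73.0-fold higher in the 3 tumor groups, and it was called in each (adjusted p = 9.86e-11, 7.36e-11 and 9.55e-12). It was also lower in both groups with an FGF19 form than in sgTrp53+MYC tumors (log2 fold change -1.48 and -1.32, adjusted p = 0.00243 and 0.00584). Erythroid cells are best known to make erythroferrone. Of 5 of their markers tested, 0 were higher than in livers in each tumor group, and 1, 4 and 4 were lower in Aldafermin+MYC, FGF19+MYC and sgTrp53+MYC tumors. Against sgTrp53+MYC tumors, 3 were higher in Aldafermin+MYC and 0 in FGF19+MYC tumors. The summed CPM of all 7 markers was 142 to 336 in livers, 36.7 to 648 in Aldafermin+MYC, 37.2 to 126 in FGF19+MYC and 18.2 to 95.8 in sgTrp53+MYC tumors. The part of these cells in the rise of *Erfe* was not tested.

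Of 18 transport genes tested, 6 were higher and 10 lower in Aldafermin+MYC, 5 and 8 in FGF19+MYC and 5 and 11 in sgTrp53+MYC tumors (medians -1.23, -1.18 and -1.74). The share called was 88.9%, 72.2% and 88.9%, beside 70.3%, 69.7% and 69.9% of all tested genes, and the share lower 55.6%, 44.4% and 61.1%, beside 31.9%, 32.9% and 33%. Ceruloplasmin (*Cp*), the plasma oxidase that loads iron onto transferrin, fell from 1726 ± 295 to 89.8 ± 104, 146 ± 138 and 105 ± 36.8 CPM (-4.26, -3.56 and -4.03). Haptoglobin (*Hp*), which binds free hemoglobin, fell from 3390 ± 799.7 to 325 ± 389, 483 ± 502 and 362 ± 400.3 CPM (-3.38, -2.81 and -3.23). The heme exporter *Flvcr1* rose from 4.38 ± 0.702 to 37.8 ± 2.68, 48.3 ± 8.55 and 55.1 ± 13.2 CPM (3.11, 3.46 and 3.65). Secreted hepatocyte products and a widely expressed exporter thus moved in opposite directions.

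Among 6 tested genes of iron regulatory proteins and ferritin turnover, 2 were higher and 3 lower in Aldafermin+MYC and in FGF19+MYC tumors, and 2 and 2 in sgTrp53+MYC tumors (medians -0.37, -0.28 and -0.11). The share higher was 33.3% in each group, beside 38.4%, 36.9% and 36.9% of all tested genes, and the share lower 50%, 50% and 33.3%, beside 31.9%, 32.9% and 33%. *Aco1*, which encodes iron regulatory protein 1, changed by -1.03, -0.98 and -0.60, and *Ncoa4*, the receptor that delivers ferritin for breakdown, by -1.27, -1.13 and -1.28 on the log2 scale. The iron chaperone *Pcbp1*, which hands iron to ferritin, changed by 1.18, 1.33 and 1.22. All 3 passed the test in each tumor group.

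Of 14 heme genes tested, 4 were higher and 8 lower in Aldafermin+MYC, 3 and 10 in FGF19+MYC and 2 and 10 in sgTrp53+MYC tumors (medians -0.54, -0.79 and -0.74). Called genes were 85.7%, 92.9% and 85.7% of the list, beside 70.3%, 69.7% and 69.9% of all tested genes, and lower genes 57.1%, 71.4% and 71.4%, beside 31.9%, 32.9% and 33%. *Alas1*, the rate-limiting enzyme of heme synthesis in liver, changed by -3.58, -3.43 and -3.28 on the log2 scale, and its erythroid form *Alas2*, which carries an iron-responsive element in its 5′ UTR, by -2.32, -3.68 and -3.60. Of the biliverdin reductase genes, *Blvrb* changed by -2.70, -2.42 and -2.79. *Blvra* went the other way, from 15.1 CPM in livers to 34.4, 32.7 and 33.7 CPM in the same order of tumors. Of 12 genes of mitochondrial iron and iron-sulfur clusters, 7 were higher and 3 lower in Aldafermin+MYC and in sgTrp53+MYC tumors, and 4 and 2 in FGF19+MYC tumors (medians 0.40, 0.30 and 0.70 in Aldafermin+MYC, FGF19+MYC and sgTrp53+MYC). Called genes were 83.3%, 50% and 83.3% of this list in that order, beside 70.3%, 69.7% and 69.9% of all tested genes, and higher genes 58.3%, 33.3% and 58.3%, beside 38.4%, 36.9% and 36.9%. The cochaperone *Hscb* rose (1.10, 1.18 and 1.56), whereas the cluster proteins *Cisd1* (-1.74, -1.75 and -1.57) and *Iscu* (-0.92, -0.98 and -0.97) fell. No gene of the 5 lists was called between Aldafermin+MYC and FGF19+MYC tumors, beside 0% of all genes.

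**Figure D5:**
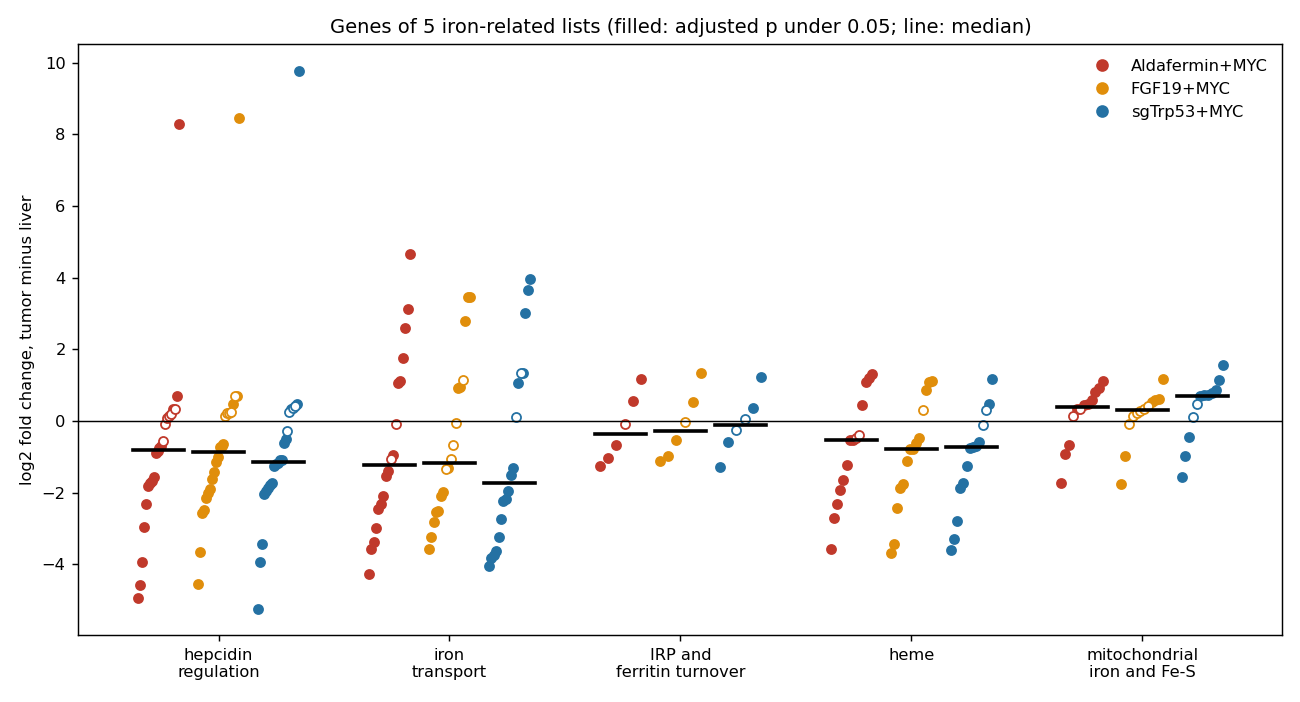
Log2 fold change against livers (vertical axis) of every tested gene of the 5 lists (points, filled where the adjusted p was under 0.05) in each tumor group, with the median as a line. The medians are below 0 for 4 lists and above 0 for mitochondrial iron genes, and the highest points of the first list are *Erfe*, whose fitted values rest on livers with 0 or 1 read and are no measure of size.

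Profiles across the 20 libraries were also compared with all other tested genes, by the root mean square difference of log2 CPM after each gene was centred on its mean. Nearest to *Hamp* were *Hsd11b1* (0.93), *Cd207* (0.93) and *Colec10* (0.94), against an SD of *Hamp* itself of 2.98. Nearest to *Hamp2* was *Cyp2c40* (1.51), to *Bmp6* *Cnr2* (0.73), to *Hfe* *Idnk* (0.20), to *Tfr2* *Oaf* (0.26) and to *Trf* *Abca8b* (0.30). *Tfrc* was nearest to *Mad2l1* (0.33), a gene of the spindle checkpoint, *Slc40a1* to *Acp2* (0.18), a lysosomal phosphatase, *Fth1* to *Dynlrb1* (0.17) and *Ftl1* to *Slc27a4* (0.18). These values are descriptions over libraries that fall into separate groups.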

How the data were processed

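RNA was taken from 15 tumors and 5 control livers. Per the labels and the study's methods, the authors prepared stranded mRNA libraries, read them as pairs, aligned them with HISAT2 to mm39 and counted reads per RefSeq gene with htseq-count (bcl2fastq 2.20.0.422 is listed among the tools). The deposited values are raw counts per gene, not normalized. They lie in 2 tables, the second of which holds only the sgTrp53+MYC libraries, and the htseq-count summary entries were kept out of library sizes and tests.

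The filter asked for 1 CPM or more in 5 or more libraries (14333 of 50559 genes). Counts were scaled by TMM and fitted with edgeR 4.0.16 (R 4.3.3, limma 3.58.1), in 1 quasi-likelihood model of 4 groups with 20 libraries. The 6 pairwise contrasts were tested with Benjamini-Hochberg adjustment over all genes tested and a threshold of 0.05. The authors named edgeR's tagwise dispersion, which was an alternative here, as were DESeq2 1.42.0, other size factors, other filters, fewer libraries and a replicate block. The fit was tested on simulated counts. CPM are on the TMM scale, and log2 CPM used a prior count of 2. Hairpins and overlaps came from GRCm39 with GENCODE M39. Promoter sequence is not reported here.

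The 10 genes, the lists and the markers were chosen with earlier results of these data known. Named genes were the 10, up to 3 of each list called in 1 direction in all 3 tumor groups with a mean of at least 10 CPM in the higher group, by size of change, and the nearest profiles (3 for *Hamp*, 1 for each other gene). *Blvra* was named outside this rule, beside *Blvrb*. Depth was 18004977 to 66354724 reads on genes, and no pair of replicates agreed within sampling noise.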

Additional observations from a re-analysis of the deposited data

Results flagged for a closer look

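In 5 of 40 combinations of an iron gene and a group, 1 library stood apart from the other 4 by Dixon's test on CPM. The rate of about 5% by chance holds for normally distributed values. Several of these CPM are strongly skewed, so that 5 of 40 cannot be read as an excess. *Hamp* was at 153 CPM in sgTrp53+MYC replicate 1, against 11.9 to 51.3 CPM in the others, and *Hfe* in the same library at 34.5 CPM, against 12.9 to 17.8 CPM. *Hamp2* was at 18.4 CPM in Aldafermin+MYC replicate 4, against 0 to 0.870 CPM, and at 51.9 CPM in FGF19+MYC replicate 5, against 0.381 to 9.79 CPM. In livers, *Tfrc* was at 26.9 CPM in replicate 3, against 10.7 to 13.7 CPM.

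Effects against livers differed between tumor groups by a test of the difference itself for 3 genes. The log2 difference from sgTrp53+MYC tumors was 1.44 in Aldafermin+MYC and 1.61 in FGF19+MYC tumors for *Trf*, 0.79 and 0.57 for *Ftl1*, and 0.57 in Aldafermin+MYC tumors for *Slc40a1*. The sgTrp53+MYC libraries were in a table of their own, so that table and group cannot be told apart.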

How the results depend on the processing

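Against livers, 10 of 10 iron genes were called in every tumor group under all alternatives and without any single library, except that 9 were called in sgTrp53+MYC tumors with no filter on low counts and with only the compared groups (*Fth1*). Between Aldafermin+MYC and FGF19+MYC tumors 0 were called throughout, while calls over all genes went from 0 to 96 with DESeq2. The count between Aldafermin+MYC and sgTrp53+MYC tumors (3) was 3 to 4 with each library left out and 2 to 5 over the alternatives. It was 5 without the 4 libraries that stood apart, an alternative chosen after seeing the data (*Hamp2* -4.54, adjusted p = 0.0238, and *Hfe* 0.69, adjusted p = 0.0381, were added). The count between FGF19+MYC and sgTrp53+MYC tumors (2) was 1 to 3 over the alternatives. It was 1 with no filter on low counts, 1 with only the compared groups and 1 without those 4 libraries. With each library left out it was 1 to 2, the lowest without FGF19+MYC replicate 5 (*Ftl1* 0.48, adjusted p = 0.0506). *Slc40a1* in Aldafermin+MYC against sgTrp53+MYC tumors was not called with no filter (0.45, adjusted p = 0.0559) or with only the compared groups (0.52, adjusted p = 0.0846), and was called in FGF19+MYC tumors by DESeq2 (0.34, adjusted p = 0.0486). The cause of these changes was not tested.

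Signs turned only for differences between tumor groups that were not called. With each library left out, the difference of Aldafermin+MYC from FGF19+MYC ranged from -0.00782 to 0.41 for *Tfrc*, from -0.00478 to 0.13 for *Fth1* and from -0.29 to 0.0196 for *Trf*, that of Aldafermin+MYC from sgTrp53+MYC from -0.82 to 1.02 for *Hamp*, and that of FGF19+MYC from sgTrp53+MYC from -1.01 to 1.37 for *Hamp2*. *Hamp* in Aldafermin+MYC against sgTrp53+MYC was -0.00822 with no filter. With the correction for GC content and transcript length, also chosen after seeing the data, it was -0.12, *Fth1* in Aldafermin+MYC against FGF19+MYC -0.0493 and *Tfr2* in FGF19+MYC against sgTrp53+MYC -0.0131. Without the 4 libraries that stood apart, *Tfrc* in Aldafermin+MYC against sgTrp53+MYC was 0.11 and *Hamp2* in FGF19+MYC against sgTrp53+MYC -0.33.

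Replicate numbers are shared between groups, but over 30 pairs of same-numbered libraries the correlation of deviations from group means ran from -0.333 to 0.333, with 6 pairs over 0.1, and 7 libraries correlated best with their own number. The numbers thus did not pair the mice. The replicate block changed no call, and the *Hamp2* difference of FGF19+MYC from sgTrp53+MYC became -0.0752.

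With RLE size factors in place of TMM, 2 hepcidin regulation genes and 1 gene of iron regulatory proteins and ferritin turnover were called between Aldafermin+MYC and sgTrp53+MYC tumors, in place of 1 and 0. With a prior count of 0.5, 1 of the 3 nearest genes of *Hamp2* stayed among them. Read counts were low for *Hamp2* and *Bmp6*, which held 0 to 31 reads in 4 of 5 and 1 to 57 reads in 5 of 5 Aldafermin+MYC tumors.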
